A study of Homo sapiens with 4 samples.

Results

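The genes described here encode centrosomal proteins with a CEP symbol. They were chosen by their current gene symbol on the array (CEP followed by a digit, with CEP55 left out). The family was put forward with its mimic against control differences already in view, so those differences are given as a description and support nothing. The rule found 35 genes among the 18132 with a probe set of their own, and 32 of them were among the 14340 genes tested. They were measured in SCC-15, a long-established line grown from a human squamous carcinoma of the tongue, on 4 Affymetrix arrays. Groups of 2 arrays each were compared, 36 h after transfection at 30 nM. The mimic group had received a microRNA mimic, which is a duplex made to act like a mature microRNA, and the control group a negative control (miR-NC). The series title and design name the mimic miR-762, whereas the labels of both mimic arrays name it miR-585-5p, so the group is called mimic below. All arrays are of 1 cell line. The labels do not say whether replicates were separate cultures, so errors and p-values measure how far these arrays differ from each other, and that spread may be technical.

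Centrosomes organise the microtubules of animal cells. Each holds a pair of centrioles inside a matrix of pericentriolar material, and the centrioles are copied once per cell cycle, by a pathway in which the kinase PLK4 acts with STIL and SASS6. CEP proteins serve as scaffolds for that copying, as parts of the centriole wall, as appendages of the mother centriole, as a linker between centrioles, or at the base of the primary cilium, a sensory antenna that grows from the mother centriole. The CEP symbol marks where a protein is found and not a shared sequence.

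The mature sequences of the microRNAs named by the sources are shown because the identity of the mimic bears on every difference below. The seed, bases 2 to 8, is in capitals, and the sequences are RefSeq entries of GRCh38.p14.
hsa-miR-762: gGGGCUGGggccggggccgagc
hsa-miR-585-5p: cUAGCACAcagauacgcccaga
Each is 22 bases long, and their seeds differ. The miR-762 sequence is 90.9% G or C and the miR-585-5p sequence 54.5%. No transcript sequences were used, so seed matches in CEP transcripts were not analysed here.

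All values are log2 of the deposited RMA intensity, and a difference is mimic minus control on that scale. Replicate arrays correlated at r = 0.998 (mimic) and 0.997 (control) across 49293 probe sets, which are not independent, and arrays of different groups at 0.991. All 5 squamous markers on the array (KRT5, KRT14, CDH1, DSG3, SFN) had means of 9.73 or more, and KRT5 and KRT14 rose 1.40-fold and 2.23-fold. CDH1, DSG3 and SFN were not called (0.04, -0.07 and -0.14), and the log2 of the summed intensity of the 5 was 13.27 and 13.30 in mimic and 12.95 and 12.88 in control arrays. Of 17 markers of fibroblasts and of immune, endothelial, multiciliated and pigment cells on the array, 12 passed the level filter, the brightest at 5.85 (CD68, which rose by 0.34), and COL3A1, DCN, LUM, PTPRC and MLANA lay below it. The log2 of the summed intensity of the fibroblast markers was 5.79 and 5.96 in mimic and 6.04 and 6.09 in control arrays, and that of the other 11 markers 7.71 and 7.73 against 7.72 and 7.65.

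Most CEP genes were modestly higher in the mimic arrays. Of the 32 tested, 27 had a positive difference and 5 a negative one, from -0.35 for CEP120 to 0.79 for CEP68, and 0 reached 2-fold. The median was 0.26, with quartiles of 0.14 and 0.45, beside a median of -0.02 and quartiles of -0.18 and 0.18 over all genes tested. A gene is called below when its Benjamini-Hochberg adjusted p in limma, over all 14340 genes, was under 0.05. By that rule 14 CEP genes (43.8%) were called higher, where 17.7% of all genes were, and 2 (6.25%) lower, where 12.3% of all genes were. Both mimic arrays lay above both control arrays for 22 CEP genes (34.2% of all genes) and below them for 2 (36.3% of all genes), and the groups overlapped for 8. Nothing is read from these counts, since they come from the contrast with which the family was chosen. In bulk RNA, a change in the share of cells at a given stage cannot be told apart from a change in RNA per cell.

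**Figure D1:**
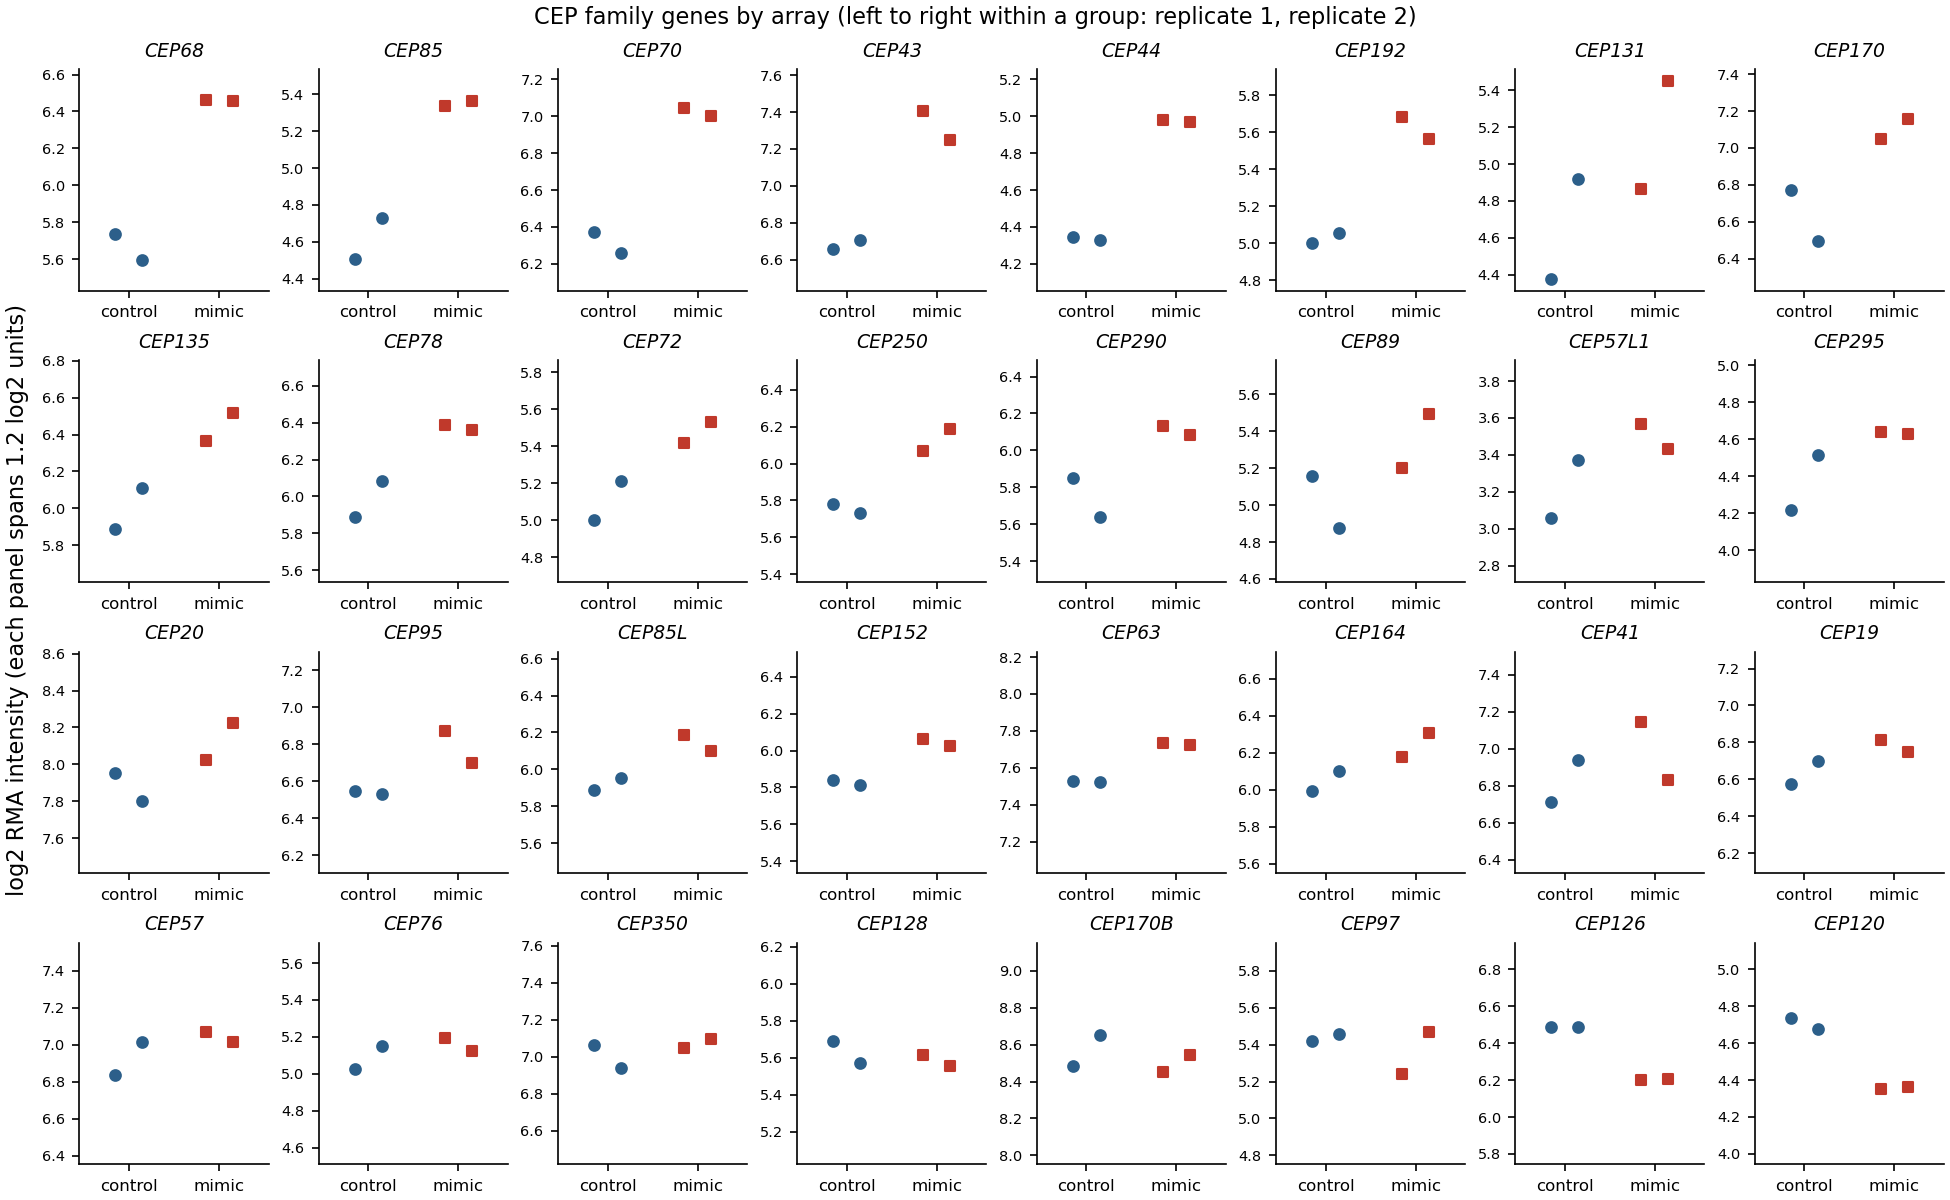
Log2 RMA intensity of the 32 tested CEP genes in each array, ordered by difference from CEP68 (0.79) to CEP120 (-0.35). Circles are control and squares mimic arrays; every panel spans the same range of log2 units, so that vertical gaps compare between panels but levels do not. The groups are apart for CEP68, CEP85, CEP70, CEP43, CEP44 and CEP192, whereas the CEP131 arrays overlap.

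The 3 remaining members lay below the level filter (2.83, an intensity of 7.10), among the lowest 30% of probe sets by mean. No detection calls were used, so such dim values were not told apart from background. CEP112 was at 1.72 and 1.96 in mimic and 1.97 and 1.73 in control arrays. CEP162 was at 2.47 and 2.30 against 2.58 and 2.33, and CEP15 at 1.46 and 1.44 against 1.74 and 1.38. All 3 overlapped between groups. The 32 tested members were above the filter level in all 4 arrays, so none passed through 1 group alone. CEP83, listed among the roles, was not analysed here.

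Of 7 genes of centriole duplication 4 were called higher, where 17.7% of all genes were. All 7 had a positive difference in their brightest probe set, as did 46.8% of all genes. The largest was that of CEP85, whose protein binds STIL and helps to activate PLK4. It was at 5.34 and 5.36 in the mimic arrays and at 4.51 and 4.73 in the controls, a difference of 0.73 ± 0.090 (SE), or 1.66-fold. CEP192, the scaffold that brings PLK4 and pericentriolar material to the centriole, was at 5.68 and 5.56 against 5.00 and 5.05 (0.59 ± 0.069). Both genes were clear of overlap, by more than their replicates differed. CEP152, which docks PLK4 on the mother centriole, was at 6.06 and 6.02 against 5.84 and 5.81 (0.22 ± 0.057). Its partner CEP63 was at 7.74 and 7.72 against 7.53 and 7.52 (0.20 ± 0.056). The differences of CEP152 and CEP63 were small, their replicates lay very close together, and both were called. Among the alternative runs described below, both calls were lost without the level filter, after quantile normalization and with a replicate block. Both were kept with a stricter level filter and with a pseudocount. Of the scaffolds that share the PLK4 platform, CEP192 was at 0.59 and its partners CEP152 and CEP63 at 0.22 and 0.20. Whether these differ from each other was not tested, and CEP192 and CEP152 each had 1 probe set past the filter. CEP57, which forms a ring-like complex with CEP63 and CEP152, was at 7.07 and 7.02 against 6.84 and 7.02, and its groups met (0.12 ± 0.081, not called). Its paralog CEP57L1 was at 0.28 ± 0.12 and CEP76, which limits repeated copying, at 0.07 ± 0.071, neither called. Another probe set of CEP76 was at -0.13.

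Of 8 genes of centriole assembly and structure, 3 were called higher, where 17.7% of all genes were. The 1 called lower is a share near the 12.3% of all genes. CEP43, a microtubule-anchoring protein also known as FOP, was at 7.41 and 7.25 in the mimic and 6.66 and 6.71 in the control arrays (0.65 ± 0.077, 1.57-fold). CEP44, which is needed for a new centriole to become a centrosome, was at 4.98 and 4.97 against 4.35 and 4.33 (0.64 ± 0.056, 1.55-fold). CEP135, which joins the cartwheel of the new centriole to its wall, was at 6.37 and 6.51 against 5.89 and 6.11 (0.44 ± 0.10). For these genes both mimic arrays were above both controls. CEP120, which acts in centriole elongation, had the lowest difference of the family by the brightest probe set. It was at 4.35 and 4.36 in the mimic and 4.74 and 4.67 in the control arrays (-0.35 ± 0.059). Averaged over its probe sets it was at -0.18 and not called, and CEP97 (-0.26) and CEP126 (-0.25) were lower. CEP295, which acts in the conversion of centrioles to centrosomes, was at 4.64 and 4.63 against 4.22 and 4.52, apart but not called (0.27 ± 0.11). CEP97, which with CCP110 caps centrioles, was at 5.24 and 5.47 against 5.42 and 5.46 and overlapped (-0.09 ± 0.091). CEP20, a relative of FOP, was at 0.25 ± 0.097, and CEP350, which binds FOP, at 0.07 ± 0.070, neither called.

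**Figure D2:**
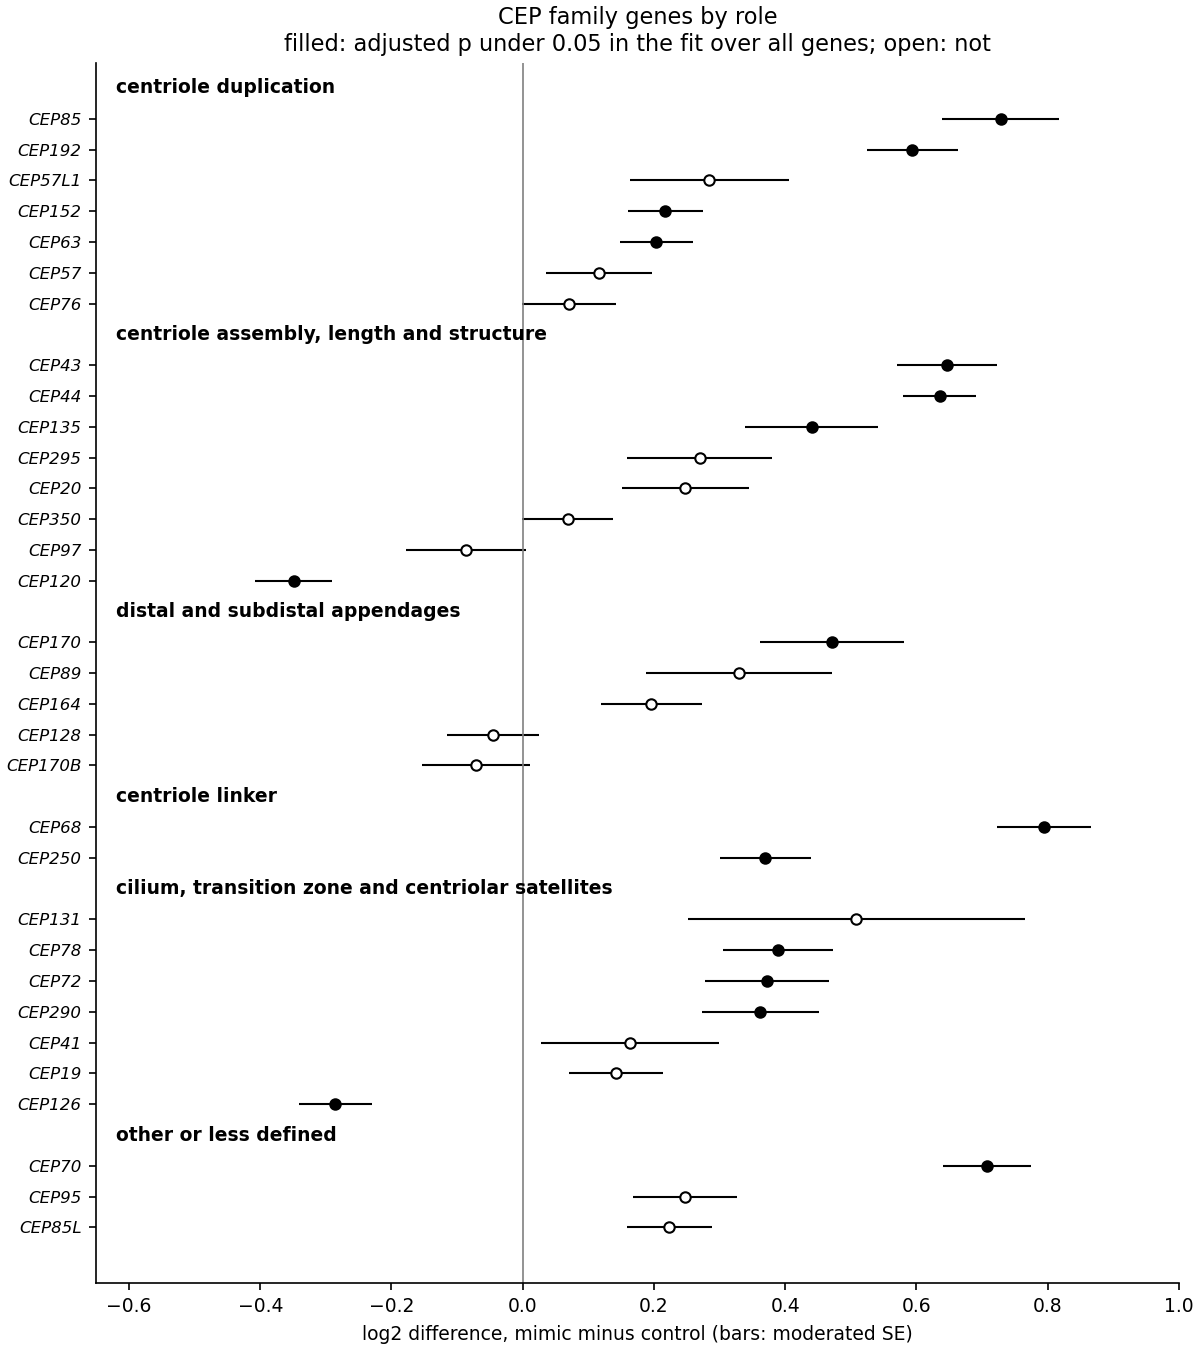
Log2 difference (mimic minus control) of each tested CEP gene by role, with moderated standard errors from limma. Filled points are called in the fit over all genes; the duplication genes lie between 0.07 and 0.73, and the only called negative values are those of CEP120 and CEP126.

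Of 5 appendage genes, CEP170 alone was called higher, a share near the 17.7% of all genes. Its protein marks the subdistal appendages, which anchor microtubules, and it was at 7.05 and 7.16 against 6.77 and 6.49 (0.47 ± 0.11). CEP164, the distal appendage protein that recruits the kinase TTBK2 to start a cilium, was at 6.18 and 6.31 against 5.99 and 6.10, apart but not called (0.20 ± 0.077). CEP89, another distal appendage gene, was at 0.33 ± 0.14 and not called. CEP128, of the subdistal appendages, was at 5.61 and 5.56 against 5.69 and 5.57 (-0.05 ± 0.070). CEP170B, the paralog of CEP170, was at 8.45 and 8.54 against 8.48 and 8.65 (-0.07 ± 0.082). Both overlapped between groups and were not called. The difference of CEP170B ranged from -0.16 to 0.01 over the alternative runs described below, so its sign was not settled.

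The linker genes were both called higher, where 17.7% of all genes were. CEP68, a linker protein that is removed when cells divide, had the highest difference of the family by the brightest probe set. It was at 6.46 and 6.46 in the mimic and at 5.74 and 5.59 in the control arrays (0.79 ± 0.072, 1.73-fold). CEP250, which encodes C-NAP1, the anchor of the linker at the centriole, was at 6.07 and 6.19 against 5.78 and 5.73 (0.37 ± 0.069, 1.29-fold). Neither gene overlapped between groups. Averaged over its probe sets CEP68 was at 0.42, below several other members such as CEP85 (0.73), and CEP250 was at 0.19 and not called.

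Among 7 genes of the cilium, transition zone and satellites, the granules around the centrosome, 3 were called higher (17.7% of all genes were). The 1 called lower is a share near the 12.3% of all genes. CEP290, a transition zone protein known from inherited ciliopathies, was at 6.13 and 6.08 against 5.85 and 5.64 (0.36 ± 0.088). CEP78 was at 0.39 ± 0.084 and the satellite gene CEP72 at 0.37 ± 0.094. CEP131, another satellite gene, was at 4.87 and 5.45 in the mimic and 4.38 and 4.92 in the control arrays. Replicate 1 was the lower array in each group, the groups overlapped, and the gene was not called (0.51 ± 0.26). With the replicate number as a block it was called at the same difference, while the calls of CEP126 and CEP78 in this group, and of CEP170, CEP152 and CEP63 in others, were lost. CEP126, a gene linked to cilium formation, was lower, at 6.20 and 6.20 against 6.49 and 6.49 (-0.29 ± 0.056), and its control arrays held the same deposited value. CEP41, which acts in the modification of ciliary tubulin, and CEP19, of the mother centriole, were at 0.16 ± 0.14 and 0.14 ± 0.072, not called.

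Outside these roles, CEP70, whose protein binds gamma-tubulin, was at 7.05 and 7.003 in the mimic and 6.37 and 6.26 in the control arrays (0.71 ± 0.067, 1.63-fold). It was called higher without overlap. CEP95 (0.25 ± 0.079) and CEP85L, the paralog of CEP85 (0.22 ± 0.065), were apart between groups and not called. CEP85 and CEP85L thus had the same sign, and CEP70, CEP85 and CEP68 were the 3 members with the highest differences by the brightest probe set. Without probe sets of the _s_at and _x_at types CEP43 was highest, at 0.83.

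Most calls were lost when 1 array was left out, and calls over all genes fell too. Such a run has 1 array in a group, so a lost call cannot be told apart from lost precision. The median CEP difference was 0.23 without control replicate 1 and 0.26 without control replicate 2. It was 0.26 without mimic replicate 1 and 0.27 without mimic replicate 2. Over all genes the median in these runs was between -0.024 and -0.0055. All 16 called members kept their sign in every alternative run that tested them, but most of these runs could not change it. No called member overlapped between groups, so leaving out an array or adding a pseudocount kept the sign. The other level filters, the intensity trend and the replicate block reused the same differences. CEP44 was not tested without probe sets of the _s_at and _x_at types. After a further quantile normalization, 7 members were called higher and 2 lower, beside 2057 higher and 2620 lower of all 14340 genes. Over all genes, lower calls thus outnumbered higher ones only after that step. The calls of CEP170, CEP135, CEP78, CEP72, CEP290, CEP152 and CEP63 were lost. Without the level filter those of CEP72, CEP290, CEP152 and CEP63 were lost, and calls over all genes went from 4310 to 3545.

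Most members had several probe sets, short oligonucleotide sets against different stretches of the same transcripts, which share the RNA and are no replicates. Of 88 member probe sets past the filter, 73 (83.0%) had a positive difference, beside 48.0% over all single-gene probe sets past it. Of 23 members with 2 or more such probe sets, 14 had only positive and 4 only negative differences, and 5 had both signs. CEP70 was uniform in sign, with 9 of 9 probe sets positive, from 0.34 to 0.71. CEP63 had 4 of 4 between 0.18 and 0.20. CEP68 had 5 of 5 positive, though the span was 0.09 to 0.79. Its value came from a probe set of the _s_at type, which can also match other transcripts, and without such sets its difference was 0.30. For CEP44 the only probe set past the filter was also of the _s_at type. In 9 of the 32 tested members the brightest probe set was of the _s_at or _x_at type. CEP350 was at 0.07 in its brightest probe set and at up to 0.68 in the other 5, all positive. CEP250 ranged from -0.13 to 0.37 and CEP57 from -0.01 to 0.51. CEP120 had -0.35 in 1 probe set and -0.0037 in the other, and CEP126 had 3 of 3 negative, from -0.43 to -0.05. The value of a member is thus that of 1 stretch of its transcripts.

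**Figure D3:**
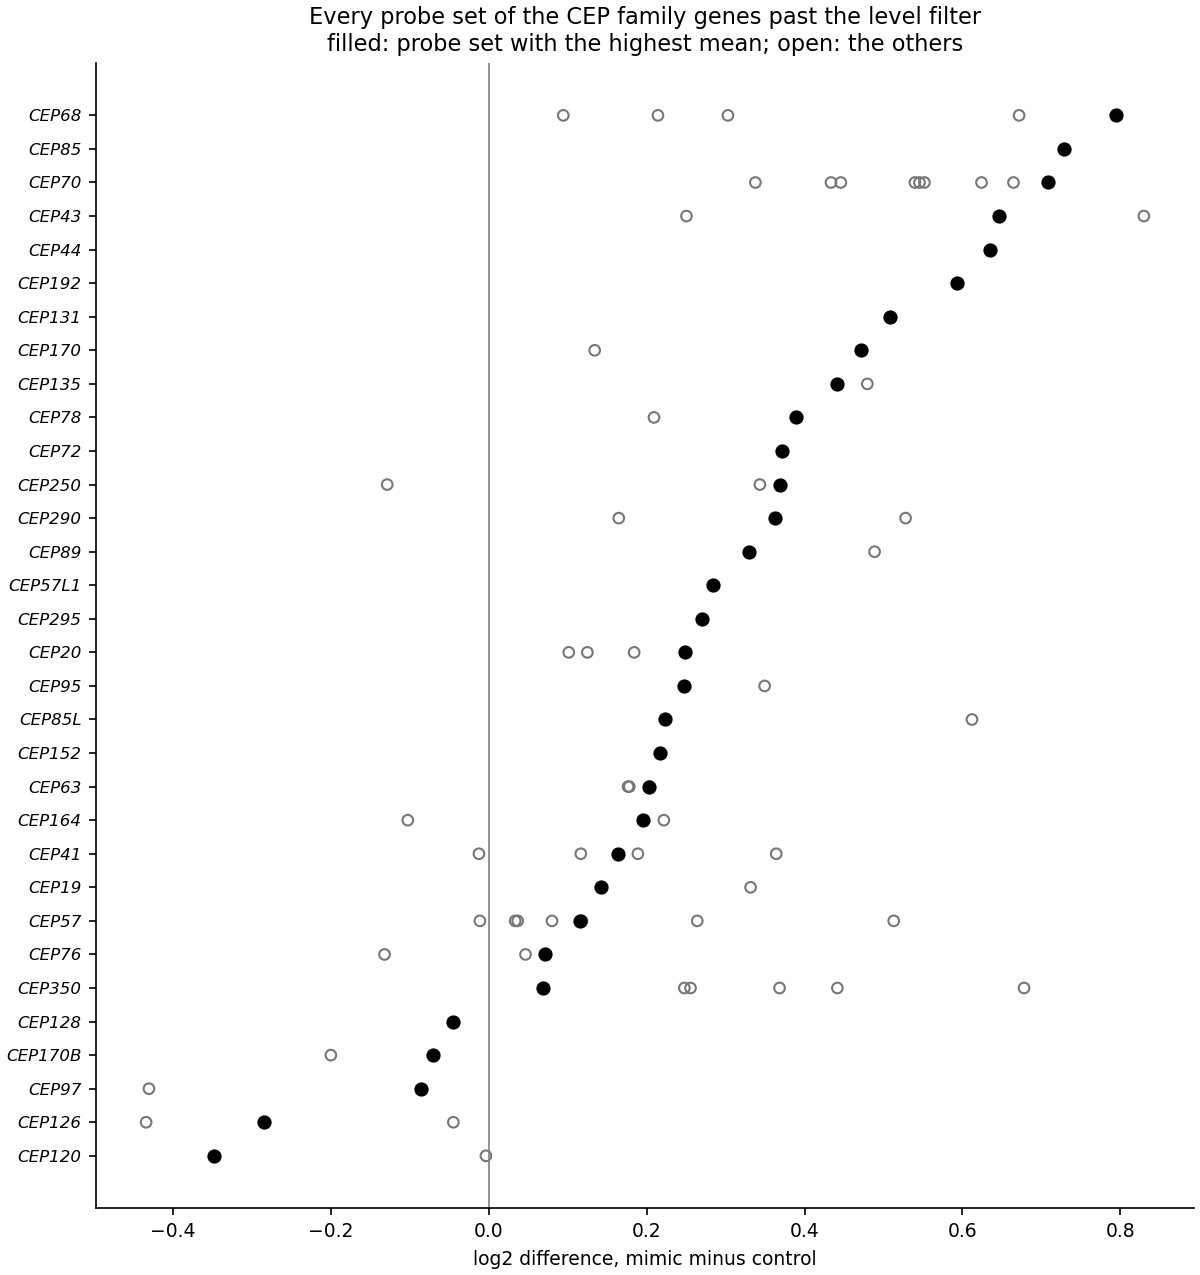
Log2 difference (mimic minus control) of every CEP probe set past the level filter, 1 line per gene, with the brightest probe set filled and the others open. CEP70 shows 9 positive probe sets in a narrow band, whereas CEP350 spreads from 0.07 to 0.68 and CEP250 crosses 0.

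Promoters are shown for the 3 members with the highest differences in their brightest probe sets and the member with the lowest, because genes of the centrosome and cell cycle often share promoter elements. RefSeq (GRCh38.p14) held a promoter for 31 of 35 members, and had none in the table for CEP15, CEP170B, CEP250 and CEP78. RefSeq lists several starts for 7 members, CEP85 and CEP120 among them, and the outermost start of each gene was used. The 250 bases before it are printed 5′ to 3′ on the gene's strand, with matches to any of 3 motifs, on either strand, in capitals. The windows are chr2:65056166-65056415 (plus strand) for CEP68, chr1:26233950-26234199 (plus) for CEP85, chr3:138594261-138594510 (minus) for CEP70 and chr5:123423843-123424092 (minus) for CEP120.
CEP68: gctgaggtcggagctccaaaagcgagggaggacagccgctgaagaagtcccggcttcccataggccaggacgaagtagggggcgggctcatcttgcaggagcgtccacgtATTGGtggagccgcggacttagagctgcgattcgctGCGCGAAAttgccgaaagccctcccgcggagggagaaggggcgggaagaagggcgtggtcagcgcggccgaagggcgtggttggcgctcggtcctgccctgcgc
CEP85: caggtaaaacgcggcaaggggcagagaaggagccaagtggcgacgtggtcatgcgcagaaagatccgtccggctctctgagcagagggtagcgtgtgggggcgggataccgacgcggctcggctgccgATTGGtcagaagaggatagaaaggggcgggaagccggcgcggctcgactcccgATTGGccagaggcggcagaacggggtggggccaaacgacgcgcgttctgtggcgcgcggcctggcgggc
CEP70: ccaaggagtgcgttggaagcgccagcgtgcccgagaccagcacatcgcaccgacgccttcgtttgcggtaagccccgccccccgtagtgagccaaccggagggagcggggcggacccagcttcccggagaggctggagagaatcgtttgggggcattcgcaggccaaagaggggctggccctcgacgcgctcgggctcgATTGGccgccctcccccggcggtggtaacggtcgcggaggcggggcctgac
CEP120: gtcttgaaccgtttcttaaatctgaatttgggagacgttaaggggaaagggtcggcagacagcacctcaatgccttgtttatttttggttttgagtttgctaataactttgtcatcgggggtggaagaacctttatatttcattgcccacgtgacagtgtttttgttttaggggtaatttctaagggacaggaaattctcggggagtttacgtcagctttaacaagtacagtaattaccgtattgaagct
The motif CCAAT is the box bound by NF-Y. It was found in 16 of 31 member promoters (51.6%), beside 33.0% of the 27305 genes in the table, with the start taken the same way. For none of the 3 motifs were those genes matched to the members, all protein-coding, by gene type or expression. CCAAT lay 140 bases before the start in CEP68, 122 and 69 in CEP85 and 51 in CEP70. Another was TTTNNCGC, a core of E2F sites, in 5 of 31 (16.1%) beside 5.9% of all genes, and it lay 104 bases before the start in CEP68. With the first start listed for each member in place of the outermost, it was in 6 of 31 (19.4%). The window of CEP120 held none of the 3 motifs. The last was TTTGAA, the cell cycle genes homology region, in 6 of 31 (19.4%) beside 13.6% of all genes, with CEP192, CEP290 and CEP152 among the members called higher. In the 12 members called higher that had a promoter, the shares were 41.7%, 16.7% and 25% in that order. In the 17 called lower or not called they were 58.8%, 11.8% and 17.6%. A match is a description of letters and not a bound site, and the table's start may differ from that used in these cells.

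Other centrosome genes, listed by function and without a CEP symbol, gave values like those of the CEP family. Of 50 tested, 24 rose (17.7% of all genes did), 3 fell (12.3% of all genes) and 23 were not called, with a median of 0.29. Among 15 duplication genes 6 rose and 0 fell. SASS6, which forms the cartwheel, rose by 0.69 ± 0.11 (limma adjusted p = 0.0125). STIL, its partner, rose by 0.58 ± 0.083 (adjusted p = 0.00984), and the centriole wall genes POC1B and POC5 by 0.59 and 0.49. Among 14 genes of the gamma-tubulin ring complex, which nucleates microtubules, and the pericentriolar material, 7 rose and 1 fell. They were led by TUBGCP4 (1.07 ± 0.10, adjusted p = 0.00364), MZT1 (0.92), TUBGCP5 (0.64) and TUBGCP3 (0.49). Of the 8 subunits of augmin, which branches spindle microtubules, 5 rose and 0 fell, led by HAUS6 (0.84 ± 0.082, with 1 of 4 probe sets at -0.17), HAUS3 (0.54), HAUS4 (0.47) and HAUS1 (0.36). Among 13 appendage, linker and satellite genes 6 rose and 2 fell. ODF2, of the appendages, rose by 0.77 ± 0.15 and the distal appendage gene SCLT1 by 0.73 ± 0.075. The satellite gene OFD1 fell by 0.63 ± 0.068 (adjusted p = 0.00492) and the distal appendage gene FBF1 by 0.48 ± 0.068. As over all genes, most of the list's calls were lost when 1 array was left out. Its median was then 0.27 without mimic replicate 1 or mimic replicate 2. It was 0.26 without control replicate 1 and 0.35 without control replicate 2.

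Genes of the primary cilium without a CEP symbol had a lower median. Of 48 tested, 15 rose (17.7% of all genes did), 4 fell (12.3% of all genes) and 29 were not called, with a median of 0.11. Among 23 intraflagellar transport genes, which carry cargo along the cilium, 8 rose and 2 fell. DYNC2H1, the heavy chain of the retrograde motor, rose 2.52-fold (1.34 ± 0.060, limma adjusted p = 0.00102). Both its control arrays were at 4.6556, without spread, in its 1 probe set past the filter. DYNC2H1 was followed by IFT81 (0.77), DYNC2LI1 (0.67) and IFT74 (0.62), and IFT81 and IFT74 each had 1 probe set of the opposite sign. Of 10 genes of the BBSome, a cargo adaptor, and ARL proteins, BBS2 rose by 0.45, and ARL6 and BBS12 fell by 0.35 and 0.29, counts near those shares. Of 15 transition zone genes 6 rose and 0 fell, led by TMEM216 (0.53), NPHP4 (0.51), RPGRIP1L (0.40) and TCTN1 (0.34). Most of this list's calls, too, were lost when 1 array was left out, as over all genes. Its median was then 0.098 without mimic replicate 1 and 0.089 without mimic replicate 2. It was 0.109 without control replicate 1 and 0.088 without control replicate 2. Its median was 0.04 after a further quantile normalization, beside 0.19 for the other centrosome genes and 0.21 for the CEP genes. The differences between these lists and the CEP family were not tested.

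**Figure D4:**
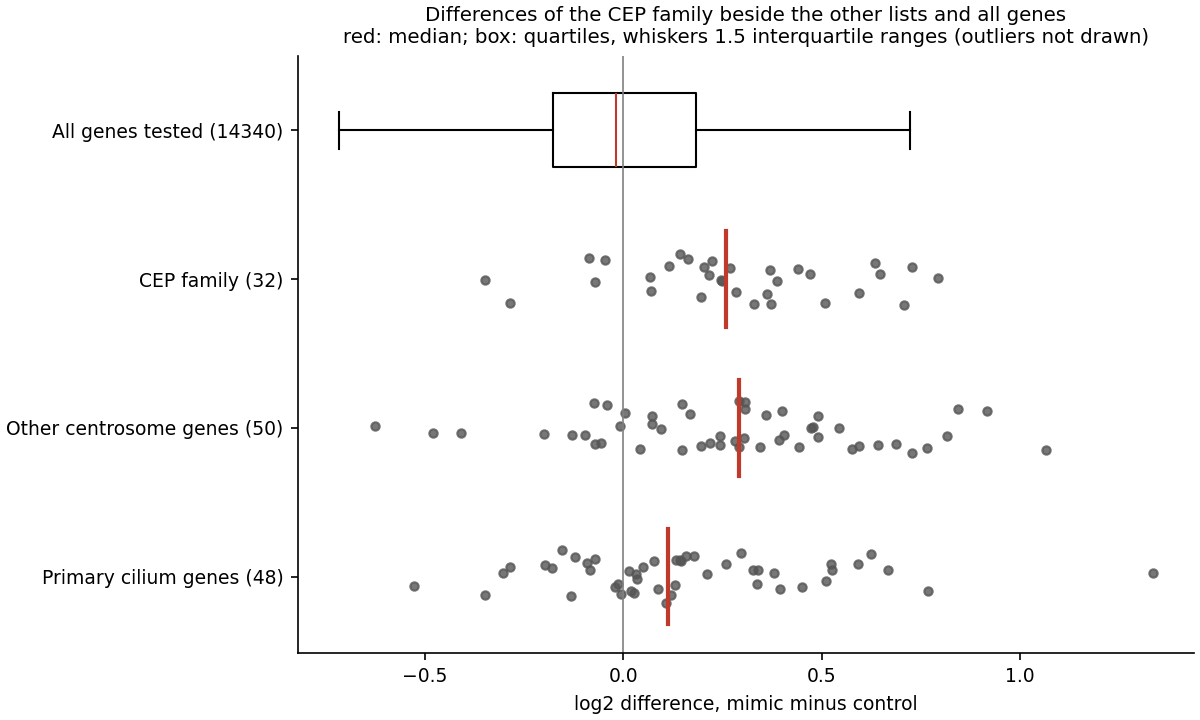
Log2 difference (mimic minus control) of the 32 CEP genes, 50 other centrosome genes and 48 primary cilium genes, 1 point per gene, beside all 14340 genes as a box. Red lines are medians, at 0.26, 0.29 and 0.11 for the lists and -0.02 for all genes.

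CEP55, which the rule leaves out and which acts in the final cut between daughter cells and not at centrioles, stood above every member. It was at 8.31 and 8.40 in the mimic and at 7.03 and 7.31 in the control arrays (1.18 ± 0.11, 2.27-fold, adjusted p = 0.00334). MKI67 and CCNA2, given as markers of proliferating cells, were also higher in the mimic arrays. MKI67 was at 8.01 and 7.94 against 6.35 and 6.55, and rose by 1.53 ± 0.087 (adjusted p = 0.0013). CCNA2, the cyclin of S phase and G2, was at 8.14 and 7.97 against 4.95 and 4.94, and rose by 3.11 ± 0.078 (adjusted p = 0.000784). Their part in the differences of the CEP genes was not tested.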

How the data were processed

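RNA of SCC-15 cells was measured on 4 Affymetrix arrays (2 mimic, 2 control). RMA is the method named by the submitters' processing notes. The sources used here do not give its software or version. The values the authors deposited were intensities on a linear scale (1.62 to 11401, array medians 17.2 to 17.5), and log2 was taken here. RMA compresses differences of dim probe sets. No detection calls were used, and the number of arrays limits the precision. Probe sets were named from the platform annotation, with symbols updated by gene identifier to RefSeq (44961 of 44988 with 1 symbol). The 1832 probe sets with several symbols and 2473 with none were left out. Probe sets in the lowest 30% by mean over all arrays were dropped, and each gene was represented by its brightest probe set.

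All genes were fitted with limma 3.58.1 (lmFit, eBayes, R 4.3.3) and no replicate block, and p-values were adjusted by Benjamini-Hochberg at 0.05. Errors are moderated standard errors on 4.98 degrees of freedom. The smallest two-sided p of an exact permutation test with 2 arrays per group is 0.333. The fit was tested on simulated data. The use of outermost starts for promoters was chosen after values were seen. Members, roles and lists were chosen with earlier results of these data known. Array values were given for the 8 members with the highest differences, the 5 negative ones and 14 listed by name. From each other list up to 4 called genes with the largest differences were named, with CEP55, MKI67 and CCNA2 always given. The alternatives tried were other level filters, quantile normalization, a pseudocount, other probe set choices, an intensity trend, a replicate block and leaving out each array.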

Additional observations from a re-analysis of the deposited data

Results flagged for a closer look

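A probe set shared by CEP170 and the pseudogene CEP170P1 was outside the comparisons above. It was at 2.48 and 2.56 in the mimic and 2.32 and 2.33 in the control arrays, a difference of 0.20 with both mimic arrays above both controls. It lay below the level filter, and without detection calls its values were not told apart from background.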

How the results depend on the processing

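The sign of the median CEP difference was positive in all 12 alternatives, which were other level filters, scalings, probe set choices and fits, and leaving out each array. All of them drew on the same arrays and the contrast with which the family was chosen. The intensity trend and the replicate block could not change the median. No support is therefore read from that tally. The median was 0.21 after quantile normalization on top, with 9 CEP genes called, and 0.20 with a pseudocount of 16. Quantile normalization moved the share of calls that were higher from 59.0% to 44.0% over all genes (2057 higher and 2620 lower), with a shift of the median gene of -0.05. On leaving out 1 array, the called CEP genes numbered 0 to 4, other centrosome genes 0 to 7, primary cilium genes 0 to 5 and all genes 0 to 963. The calls of 0 came in limma without mimic replicate 1 or 2, where 4198 and 4269 genes had an unadjusted p below 0.05. With the replicate number as a block, 12 CEP genes were called (11 higher, 1 lower), 20 other centrosome genes, 16 primary cilium genes and 2918 of all genes. The labels do not say that the numbers pair arrays, and same-numbered arrays did not deviate together (r = -0.0089 across probe sets past the filter). Of the 16 CEP genes not called, 5 changed sign in 1 or more alternatives. With 2 arrays per group, small differences such as those of CEP152 and CEP63 rest on very close replicates.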
